A study of Mus musculus with 25 samples.

Results

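Male germ cells that lack YTHDC2 were compared between 2 neighbouring groups of cells that the study's own clustering had kept apart. YTHDC2 unwinds RNA, carries an m6A-binding YTH domain, and is needed for male germ cells to leave mitosis for meiosis. The authors' cell table names both groups as mixtures of differentiating spermatogonia, leptotene and zygotene cells and numbers them 1 and 2, and they are called here the first and the second mixed cluster. Within the Ythdc2 knockout (KO) they held 1878 of 3377 cells, out of 4528 cells in all: 1033 cells in the first (592 from library KO A, 441 from KO B) and 845 in the second (335 from KO A, 510 from KO B). Every cell was drawn to 5000 unique molecular identifiers (UMIs, tags that count RNA molecules), the UMIs were summed per library and cluster, and the 4 sums were expressed as counts per 1e6 UMIs (CPM).

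All cells came from testes of postnatal day 10 mice, labelled P10, and were sorted for a 4N DNA content, the content of a cell that has replicated its DNA and not yet divided. Cells past replication in a mitotic cycle and cells in meiotic prophase both carry it, and this sort sets which cells could be seen. The KO group is Ythdc2 KO and has 2 samples, the wild type (WT) has 1. The labels refer the KO line to earlier work and place the line-making in B6D2F1 hybrid embryos only for the other Ythdc2 mutant lines. The labels used here do not say which exons the KO removes or whether a library is 1 animal or a pool. The KO library numbers cannot be tied to one or the other KO sample. Each of the 4528 cells had its own name in the cell table (0 repeated), and whether libraries shared barcodes was not examined.

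Ribosomal protein genes are among the most strongly transcribed genes of a growing cell. Most of their mRNAs, like those of several translation elongation factors, begin with a run of C and T called a 5′ terminal oligopyrimidine tract, through which growth signals (mTOR, LARP1) control their translation and storage as a group. Mitochondrial DNA encodes a small set of respiratory chain subunits, and all others come from nuclear genes. Entry into meiosis is marked by Stra8 and by proteins of the chromosome axis and of the synaptonemal complex, the structure that joins homologous chromosomes. M phase, the division itself, is driven by CDK1 with B-type cyclins, PLK1 and the Aurora kinases.

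The second mixed cluster held more ribosomal protein RNA and less mitochondrially encoded RNA than the first, in both KO libraries and at equal UMIs per cell. Of 81 measured cytosolic ribosomal protein genes, 74 were higher and 0 lower in the second cluster. Of 12 mitochondrially encoded genes, 12 were lower. Stra8 and 5 of 13 genes of the synaptonemal complex, chromosome axis and cohesin were higher, and 0 of these 13 were lower. Of 20 M-phase genes 1 was lower over all cells, and 10 were lower among cells sequenced to between 10000 and 15000 UMIs. These are the deeper cells of the first cluster and the shallower cells of the second. For comparison, 3.31% of all measured genes were higher and 3.08% lower over all cells. Between 10000 and 15000 UMIs 4.79% were lower.

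A gene was measured if it averaged at least 20 CPM over the 4 sums (6826 genes). It was called higher or lower in the second cluster if it differed by at least 1.5-fold in the same direction in both libraries. By this rule 226 genes were higher (3.31% of those measured) and 210 were lower (3.08%). No test was made: the clusters were formed from the expression of these same cells, so a p-value would be circular, and the called genes describe the clusters. The differences are set instead beside those between libraries. KO A and KO B differed by 1.5-fold in the same direction in both clusters for 9 of the 6826 genes. KO A passed the fold between clusters for 1059 genes and KO B for 780, and both counts include the genes called in both libraries. In opposite directions 0 genes passed it. Across genes, which are not independent replicates, the log2 differences of the 2 libraries had a Pearson correlation of 0.77, and of 0.72 without ribosomal protein and mitochondrially encoded genes. Genes near the limit were numerous: 325 lay between 1.4- and 1.5-fold, Erp44 was just inside (log2 0.67 and 0.59) and Nipbl just outside (0.58 and 0.61).

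**Figure D1:**
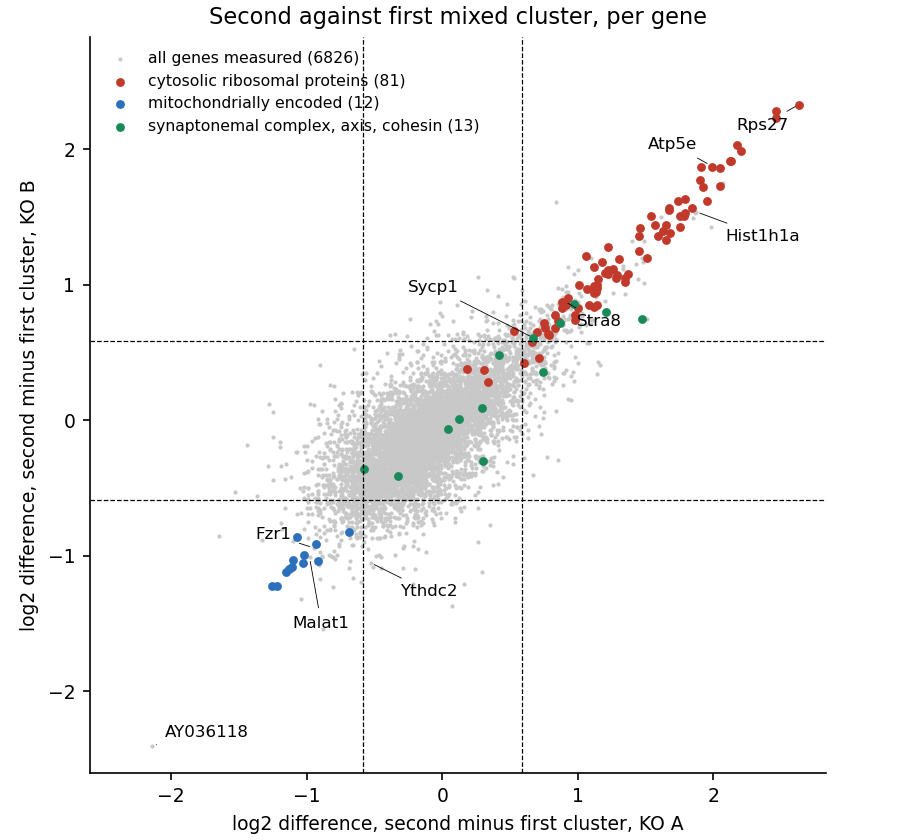
Log2 difference between the second and first mixed cluster for each of 6826 genes in KO A (x axis) and KO B (y axis), with the 1.5-fold limits as dashed lines. The 81 ribosomal protein genes (red) run from near 0 to the upper right corner, with Rps27 farthest out, and the 12 mitochondrially encoded genes (blue) lie in the lower left.

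On the CPM scale the median over all measured genes was -0.13, and it was -0.14 over the 6733 genes outside the ribosomal protein and mitochondrially encoded lists. The sum over all genes outside these lists went from 847844 to 833370 CPM in KO A and from 850970 to 831867 in KO B. TMM scaling, which centres the bulk of the genes, moved this median by 0.12, to -0.01, and changed the split of the calls from 226 higher and 210 lower (51.8% higher) to 348 higher and 68 lower (83.7% higher). List medians are therefore given beside the all-gene median.

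Before depth was equalised the clusters differed in size. The median cell of the first cluster held 8149 UMIs (KO A) and 8563 (KO B), with 3594 and 3702 genes. The median cell of the second held 16099 and 16156 UMIs, and 4873 and 4884 genes. At 5000 UMIs per cell the order of gene numbers was the other way round, 2680 and 2677 genes in the first cluster against 2575 and 2586 in the second. The lowest recovered total of any cell was 5442 UMIs, so no cell was lost to thinning. Fewer sequenced UMIs in a cell and less RNA in it cannot be told apart here. Depth moved with each result below, and its part in them was not tested beyond the values by depth given below. Scrublet marked 4 and 2 cells of the first cluster and 1 and 3 of the second as doublets, in KO A and KO B.

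The cluster names were checked against markers. Sycp1, a transverse filament protein of the synaptonemal complex, stood at 891 and 934 CPM in the first cluster and at 1421 and 1427 in the second, beside 1697 in the authors' WT leptotene-zygotene cluster. Kit, the receptor of differentiating spermatogonia, stood at 88.9 and 88.9 and at 68.7 and 65.9, beside 99.8 in KO B differentiating spermatogonia and 15.5 in WT leptotene-zygotene cells. RNA of 1 marker of each named stage was thus present in both mixed clusters. Such RNA does not set the stage by itself. Kit also does not stand for the other markers of differentiating spermatogonia. Of 9 measured genes of spermatogonial differentiation, 4 were above 0 and 4 below 0 in both libraries, and Stra8 was called higher. Genes of the synaptonemal complex, chromosome axis and cohesin summed to 2633 (KO A) and 2827 CPM (KO B) in KO differentiating spermatogonia too. Of 7 somatic marker lists (peritubular myoid, stromal, Sertoli, Leydig, macrophage, endothelial and red blood cell), 0 had a member that reached the limit for measurement. The highest sum of any of these lists in a mixed cluster was 36.5 CPM, for Sertoli cells in the second cluster of KO B, and the macrophage sum was 0 in all 4. Part of these lists rests on few genes: the table analysed held 1 of 9 macrophage, 1 of 7 Leydig, 2 of 7 endothelial and 2 of 6 red blood cell markers, so it says little on these 4 cell types, and 8 of 8 peritubular myoid, 9 of 10 stromal and 9 of 12 Sertoli markers. For peritubular myoid cells the sums ran from 1.19 to 3.92, beside 2170 and 2491 in the KO cells that the authors call undifferentiated spermatogonia.

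Ythdc2 itself remained detectable in the KO cells. It stood at 58.8 CPM (KO A) and 71.7 (KO B) in the first cluster and at 40.6 and 34.5 in the second, beside 172 in WT differentiating spermatogonia and 267 in WT leptotene-zygotene cells. All 4 KO sums were below both WT values, and both sums of the second cluster were below both of the first, with log2 differences of -0.53 and -1.05, of which KO A did not reach the fold. Meioc, the partner of YTHDC2 in meiotic entry, stood at 400 and 420 in the first cluster and at 575 and 570 in the second, short of the fold in both libraries (log2 0.52 and 0.44). Rbm46, an RNA-binding protein of the same complex, went from 311 and 312 to 217 and 240 (log2 -0.52 and -0.38). Xrn1, a 5′ to 3′ exoribonuclease that binds YTHDC2, differed in sign between libraries, from 69.3 to 60.3 in KO A and from 65.3 to 74.5 in KO B.

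The cytosolic ribosomal proteins differed more than any other list examined. Summed over the 81 measured genes and the 2 that were not, they took 47409 CPM in the first cluster of KO A and 55146 in that of KO B, against 117752 and 123456 in the second. In these sums the first cluster was also below every other cluster set beside it. The sums do not show the spread between cells, which is given below. Differentiating spermatogonia stood at 88482 (KO A), 116421 (KO B) and 115031 (WT), and WT leptotene-zygotene cells at 129852. The median log2 difference over the list was 1.18, beside -0.13 for all measured genes, and 81 of 81 were above 0 in both libraries. The median was 1.41 for 32 proteins of the small subunit (28 higher) and 1.17 for 49 of the large subunit (46 higher).

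The members did not differ by one common factor. Rps27, a small-subunit protein, went from 293 to 1819 CPM in KO A and from 367 to 1841 in KO B, a mean log2 difference of 2.48 ± 0.22 (SD, n = 2 libraries). Rpl17 followed at 2.37 ± 0.13, Rps15a at 2.35 ± 0.16, Rpl9 at 2.10 ± 0.10 and Rps19 at 2.09 ± 0.15. At the other end, Rps21 went from 1373 to 1550 and from 1390 to 1807, a difference of 0.28 ± 0.14, and Rpl7l1, a Rpl7 paralogue, reached 0.31 ± 0.04. Rps21, Rpl7l1 and Rpl4 were among the 7 that did not reach the fold in both libraries. Differences between Rps27 and Rps21 were thus several times the spread between libraries. Ribosomal protein genes have many near-identical processed copies in the genome, and the labels used here do not tell how the authors' counting divided such reads, so the values of single members are uncertain. The copy Rps27rt went the same way as Rps27, from 31.1 to 130 in KO A and from 37.2 to 125 in KO B.

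The sequences around the annotated start of transcription are shown for genes of this group because the start is where the oligopyrimidine tract lies. Each run covers 10 bases before to 20 bases from the start on, 5′ to 3′ on the gene's strand, from RefSeq on GRCm38.p6. Capitals mark an unbroken run of at least 8 C or T that overlaps the 10 bases on either side of the start. The first 6 genes were higher in the second cluster and hold such a run. Rps19, Tpt1 and Pfn1 were higher too and hold none at a listed start. Tpt1 is nevertheless in the list used below of mRNAs known for such a tract. Of the lower genes shown, Bend4 holds a run, which begins 1 base before the bases printed, and Fzr1 and Hdac5 hold none. The genes were picked to show each of these cases. Over the genes named by the rule, with Eef1a1 and Eef1b2 added, 11 of 24 higher and 1 of 14 lower ones with a listed start held a run. Many of these 24 encode ribosomal proteins, and both counts are small. Eef1a1 and Eef1b2 were added to the higher side only, so no contrast is drawn between the higher and lower genes. Over all measured genes with a matched start, 15.7% held a run at any listed start.
Rpl35 (chr2:39005112-39005141, minus strand): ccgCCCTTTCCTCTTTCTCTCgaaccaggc
Rps10 (chr17:27635225-27635254, minus strand): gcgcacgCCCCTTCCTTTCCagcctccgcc
Rps27 (chr3:90213629-90213658, minus strand): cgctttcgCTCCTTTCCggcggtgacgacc
Fau (chr19:6057937-6057966, plus strand): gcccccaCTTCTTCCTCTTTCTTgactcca
Rack1 (chr11:48800350-48800379, plus strand): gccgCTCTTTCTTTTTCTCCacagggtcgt
Eef1a1 (chr9:78481705-78481734, minus strand): ctccgCCCTCTTCCCgagggtgggggagaa
Rps19 (chr7:24884582-24884611, plus strand): aatctcgcgagactcgacgcccgacttgtg
Tpt1 (chr14:75845246-75845275, plus strand): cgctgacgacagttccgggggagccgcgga
Pfn1 (chr11:70654631-70654660, minus strand): aaatctagaggggggggggaggagcaggaa
Bend4 (chr5:67427780-67427809, minus strand): CTCCTTTCTCCCTCCaggcattggcgaggc
Fzr1 (chr10:81378351-81378380, minus strand): gtgagcagcggcggcggggcctgtcgcaac
Hdac5 (chr11:102230153-102230182, minus strand): ctcggggtcgggtcacgtgacgagagtgac

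A run of this kind was present at any listed start of 863 of 5505 measured genes that could be matched to a RefSeq start by symbol (15.7%). Of the 210 lower genes 172 could be matched, and 22 of these held a run (12.8%), near the share of all genes. For the ribosomal proteins 61 of 81 could be matched and 29 of these 61 held a run. Since fewer than 80% of the ribosomal proteins, and 173 of the 226 higher genes, had a start in the table, a share for either list is void. A match describes these letters and is not a measured start of the RNA.

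Other mRNAs known for an oligopyrimidine tract moved with the ribosomal proteins in part. This list was put together after the ribosomal protein values had been seen. Of 22 measured members, 13 were higher and 0 lower, with a median of 0.79. Fau, which encodes small-subunit protein S30 fused to a ubiquitin-like domain, went from 555 to 1562 CPM in KO A and from 706 to 1757 in KO B. Rack1, a scaffold on the small subunit, went from 286 to 794 and from 331 to 761. Eef1a1, the factor that brings aminoacyl-tRNA to the ribosome, went from 844 to 1850 and from 1025 to 1921. Others of the list did not reach the fold: Eef2, the translocation factor, went from 788 to 685 and from 752 to 692, and Eef1d from 319 to 324 and from 313 to 320. Eif4b, a helper of the mRNA helicase eIF4A, went from 153 to 146 and from 137 to 139.

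Of 58 measured translation factors and their modifiers, 10 were higher and 0 lower, with a median of 0.11. Besides Eef1a1 these were Eef1b2 and Eef1g of the same elongation complex, Eif2s1, Eif2s3x and Eif2s3y of the initiator tRNA carrier eIF2, and Eif3e, Eif3h, Eif3k and Eif3m of the scaffold eIF3. Within eIF3 the subunits divided. Eif3e went from 151 to 303 in KO A and from 171 to 298 in KO B, while Eif3b went from 217 to 115 and from 174 to 125, and Eif3c from 1030 to 740 and from 1011 to 740. Both sums of the second cluster were thus above both of the first for Eif3e and below both for Eif3b and Eif3c, of which the last 2 did not reach the fold in both libraries. Of 76 mitochondrial ribosomal proteins, which make the separate ribosome of the organelle, 5 were higher and 0 lower (median 0.13), led by Mrpl13 (84.1 to 170 and 93.4 to 177).

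Within single cells the ribosomal protein level differed at the medians and overlapped in the tails. Among 5000 UMIs, the median cell of the first cluster held 219 (KO A) and 255 (KO B) ribosomal protein UMIs, and the median cell of the second held 579 and 612. In KO A, 37 of 592 first-cluster cells reached the lowest cell of the second cluster, and in KO B 104 of 441 did. In the other direction, 220 of 335 second-cluster cells of KO A and 186 of 510 of KO B lay at or below the highest cell of the first cluster. Above the median of the second cluster lay 2 first-cluster cells of KO A and 0 of KO B. Below the median of the first cluster lay 0 second-cluster cells in either library. Mitochondrially encoded UMIs overlapped more, with medians of 520 and 452 in the first cluster and 237 and 214 in the second. The labels used here do not say which genes entered the authors' clustering. Their gene table flags 17 of the 81 ribosomal protein genes as highly variable (21.0%), beside 20.7% of all measured genes. The gap is given as a description of the clusters. Other KO clusters also held cells with few ribosomal protein UMIs. In KO A, differentiating spermatogonia had a median of 406, a lower quartile of 281 and a lowest cell of 160. Cells called undifferentiated had 348, 267 and 173 there, beside an upper quartile of 255 in the first cluster. In KO B these values were higher at the medians, at 632, 411 and 174 and at 626, 313 and 163, beside 312.

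**Figure D2:**
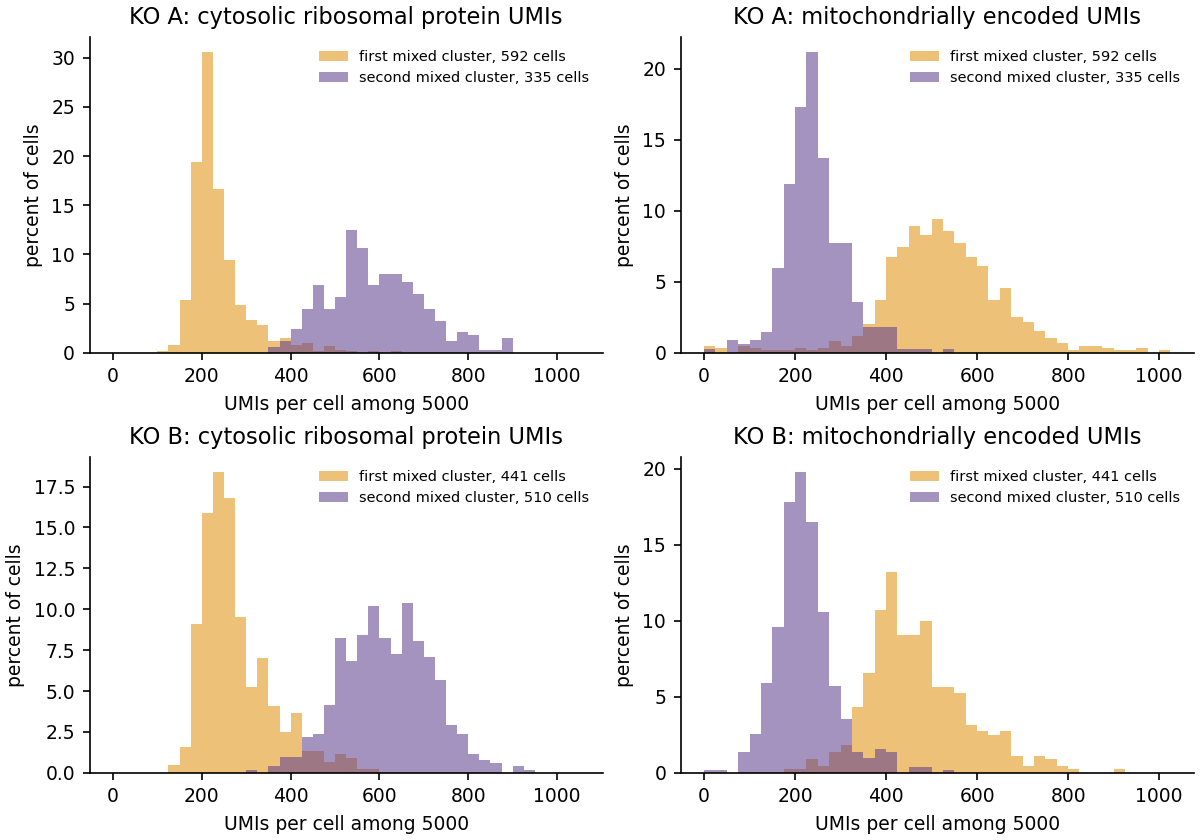
Distribution of cells by the number of cytosolic ribosomal protein UMIs (left) and mitochondrially encoded UMIs (right) among 5000 UMIs per cell, as percent of the cells of each cluster, in KO A (top) and KO B (bottom). First-cluster cells (orange) gather near 219 and 255 ribosomal UMIs and second-cluster cells (purple) near 579 and 612, with overlapping tails.

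The mitochondrial transcripts were lower together and by a similar factor. Summed, they took 104746 and 93884 CPM in the first cluster and 48879 and 44677 in the second, beside 98014 and 76558 in KO differentiating spermatogonia, 73003 in WT ones and 56797 in WT leptotene-zygotene cells. The second cluster was the lowest of these. The 12 measured genes had log2 differences from -1.24 to -0.75, with a median of -1.05. mt-Nd4, a subunit of complex I, went from 8028 to 3346 in KO A and from 7270 to 3112 in KO B. mt-Co1, the core of cytochrome c oxidase, went from 15339 to 8036 and from 13640 to 7263, and mt-Nd5, the least changed, from 509 to 316 and from 508 to 287. The authors' mitochondrial fraction gave the same order, with medians of 10.4% and 9.02% against 4.73% and 4.28%.

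The listed nuclear genes of the respiratory chain did not follow the mitochondrial ones: 15 of 81 were higher, 0 were lower, and the median was 0.22. The measured members of this list include no gene of complex II. Its subunit Sdha, counted with the citric acid cycle genes, was lower in both libraries. Atp5e, the epsilon subunit of ATP synthase, went from 172 to 681 CPM in KO A and from 194 to 715 in KO B, the widest difference among named higher genes outside the ribosomal proteins (1.93 ± 0.07, SD, n = 2). Uqcr10 and Uqcrq, small subunits of complex III, had differences of 1.24 ± 0.28 and 1.06 ± 0.08. Ndufs8 and Ndufb5 of complex I stood at 0.93 ± 0.03 and 0.92 ± 0.09. The large catalytic subunits of ATP synthase stood differently from Atp5e: Atp5b went from 1038 to 879 and from 990 to 887, and Atp5a1 from 799 to 630 and from 780 to 609.

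Nuclear-retained Malat1, a long noncoding RNA, was lower in the second cluster, at 5982 and 6003 CPM in the first and 3023 and 2972 in the second. Levels in differentiating spermatogonia (3818 in KO A, 3599 in KO B and 3176 in WT) lay between the clusters, and WT leptotene-zygotene cells stood at 1902. A high mitochondrial share, a high Malat1 share and a low UMI number, which are used as signs of RNA quality in droplet data, thus moved together with the low ribosomal protein level of the first cluster, and their part in it was not tested. Among cells under 10% mitochondrial UMIs (254 and 304 cells of the first cluster, 334 and 508 of the second), 197 genes were higher and 187 lower.

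Outside the ribosomal protein and mitochondrially encoded lists, 152 genes were higher and 198 lower. The differences were smaller here: 20 and 2 reached 2-fold in both libraries. Hist1h1a, the linker histone H1.1, went from 205 to 749 CPM in KO A and from 228 to 664 in KO B, beside 977 in WT leptotene-zygotene cells and 264 and 297 in KO differentiating spermatogonia. Histone genes have near-identical copies, so this value is uncertain. Pcbp2, a poly(C)-binding protein, went from 117 to 357 and from 111 to 315. Tpt1, the growth-related protein TCTP, went from 540 to 1453 and from 644 to 1431, and Pfn1, the actin-binding profilin, from 185 to 465 and from 220 to 485. Ccni (cyclin I), Dph3 (diphthamide synthesis), Selenow (a selenoprotein) and Cnbp (a nucleic acid-binding zinc finger protein) were further named higher genes, with mean differences from 1.02 for Cnbp to 1.25 for Selenow.

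Among the genes that were lower, AY036118 on chromosome 17 had the widest difference, from 160 to 36.4 and from 184 to 34.9. Fzr1, an activator of the anaphase-promoting complex, went from 145 to 75.2 in KO A and from 154 to 80.4 in KO B, a difference of -0.94 ± 0.01 (SD, n = 2), and WT leptotene-zygotene cells stood at 17.3. Its difference ran from -2.36 (cells of 5000 to 10000 UMIs) to -0.71 (the authors' scaled means) under the alternatives, a wider range than the SD over libraries. Hdac5, a class IIa histone deacetylase, went from 107 to 59.1 and from 89.3 to 48.6. Bahd1, a heterochromatin protein, went from 64.2 to 35.8 and from 68.5 to 34.5. The other named genes were Cactin, Riox1 (a histone demethylase), Knop1, Thop1 (an oligopeptidase), Mex3c (an RNA-binding ubiquitin ligase), Chga, Fxr2 (a relative of FMRP), Sympk (a scaffold of mRNA 3′ end formation), Bend4 and Fbxo34, with mean differences from -0.99 for Riox1 to -0.79 for Fbxo34. Riox1 stood at -2.62 among cells of 5000 to 10000 UMIs and Fxr2 at -0.18 among cells of 10000 to 15000.

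Genes of meiotic chromosomes were higher in the second cluster in part. Of 13 measured genes of the synaptonemal complex, chromosome axis and cohesin, 5 were higher, 0 were lower, and the median was 0.45. The sum went from 4279 to 6150 CPM in KO A and from 4663 to 6177 in KO B, beside 9600 in WT leptotene-zygotene cells. Hormad1, an axis protein, went from 251 to 580 and from 312 to 544, with 714 in WT leptotene-zygotene cells. Tex12, of the central element, went from 155 to 302 and from 159 to 289, with 707. Sycp2, an axis protein, stood at 214 and 227 against 390 and 373, and Syce3 at 40.9 and 59.9 against 113 and 100. Sycp3, the partner of SYCP2, was higher in each library but not by 1.5-fold in KO B (564 to 943 and 883 to 1133).

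Some other members did not go the same way. Syce1 and Syce2 had differences of -0.01 and 0.07. The meiotic cohesin subunits divided. Stag3 and Rec8 had -0.47 and -0.37, short of the fold. Smc1b and Rad21l were not called over all cells either, but at equal sequenced depth their differences were above 0 in both libraries (values below). The lists for later steps showed few calls. Of 7 measured double-strand break genes 0 were called, of 12 strand exchange genes 1 (Rpa3, higher), of 5 crossover genes 0 and of 6 telomere attachment genes 0. Dmc1, the meiotic recombinase, went from 276 to 290 and from 240 to 237. Prdm9, which marks hotspots, went from 118 to 115 and from 94.8 to 109.

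Stra8, the retinoic acid-induced gate of meiosis, went from 1171 to 2187 CPM in KO A and from 1098 to 2028 in KO B, a difference of 0.89 ± 0.01. Both second-cluster sums were above the 1637 of WT leptotene-zygotene cells. Of the 10 measured meiotic entry genes, Stra8 was the single call. Tex101, a germ cell surface protein, went from 1221 to 2004 and from 1330 to 1783 and did not reach the fold in KO B. Gm4969, which encodes the STRA8 partner MEIOSIN, stood at 30.4 and 29.0 against 29.9 and 24.3. Sohlh1, a transcription factor of differentiating spermatogonia, stood at 120 and 114 against 90.1 and 102. In the piRNA pathway, which silences transposons, Mael (114 to 219 and 115 to 195) and Asz1 (21.6 to 38.2 and 28.6 to 49.8) were the 2 of 15 that were higher.

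**Figure D3:**
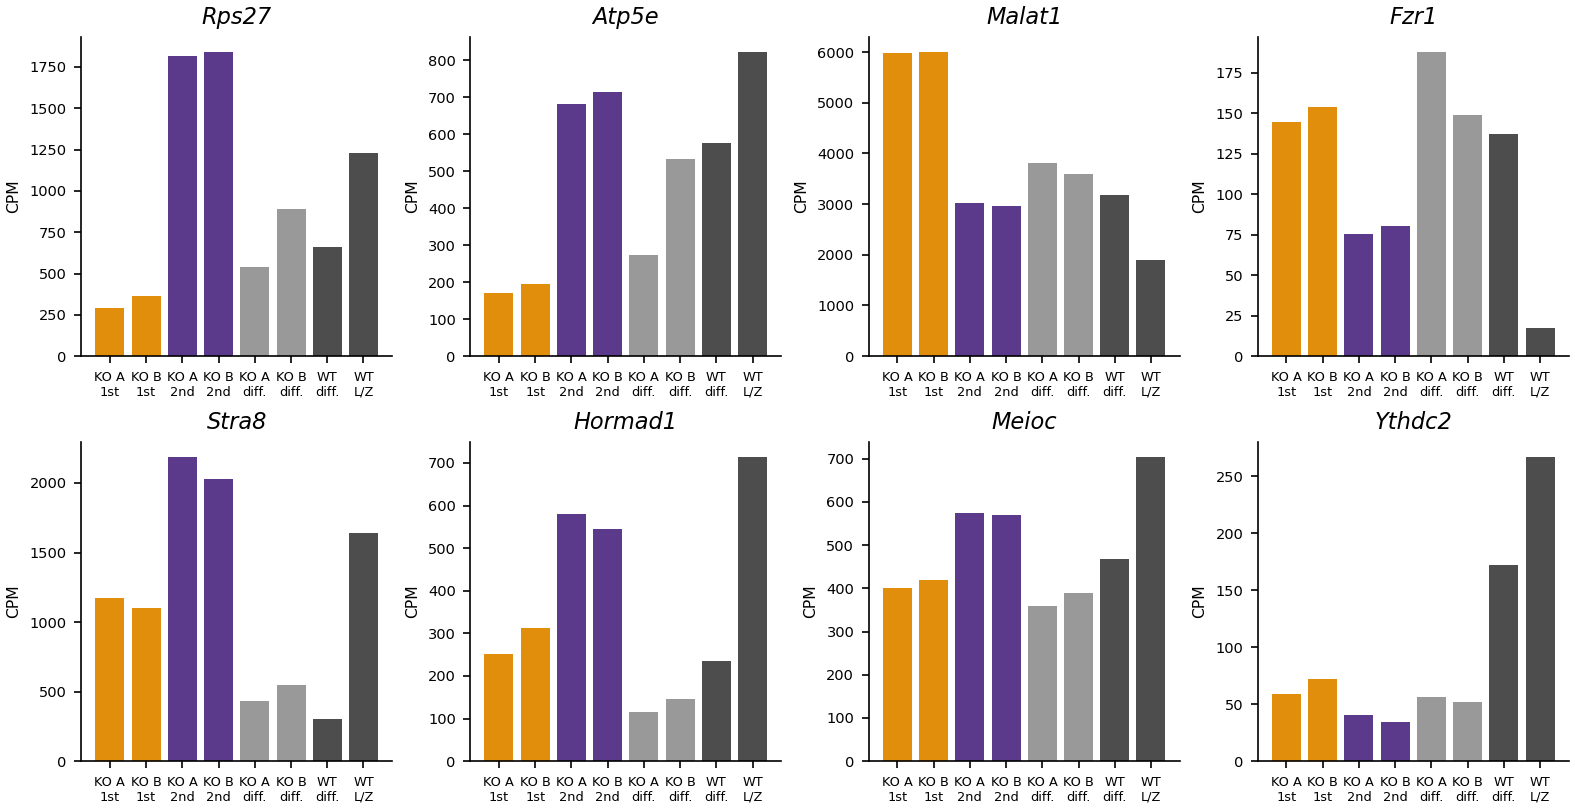
CPM of 8 genes in the first (orange, 1st) and second (purple, 2nd) mixed cluster of KO A and KO B, in differentiating spermatogonia (diff.) of each KO library (light grey) and of WT, and in WT leptotene-zygotene cells (L/Z, dark grey); each bar is 1 sum, so there is no error bar. Rps27 and Atp5e are low in the first cluster, Malat1 and Fzr1 low in the second, and Stra8 and Hormad1 high in the second.

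Genes of cell division gave 2 answers, depending on the cells compared. Over all cells, 0 of 20 M-phase kinases, cyclins and regulators were higher and 1 (Fzr1) was lower, with a median of -0.22 beside -0.13 for all genes. Cdk1 went from 280 to 263 and from 288 to 227, Ccnb1 from 219 to 221 and from 231 to 231, and Aurka from 244 to 167 and from 250 to 170. The authors' G2M score had medians of 0.27 and 0.29 in the first cluster and 0.28 and 0.29 in the second. Of 25 spindle and segregation genes, the checkpoint protein Mad2l1 was higher and the cohesin protector Sgo1 lower. Of 18 genes of the anaphase-promoting complex, Anapc16 was higher and Anapc5 lower. Of 11 condensin and related genes, Smc4 was higher (531 to 996 and 502 to 998).

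Among cells sequenced to more than 10000 and up to 15000 UMIs, a setting added after the depths had been seen, more M-phase genes passed the fold. These cells are a part of each cluster (106 of 592 in KO A and 103 of 441 in KO B from the first, 106 of 335 and 148 of 510 from the second). Over these cells 249 of 6802 measured genes were higher (3.66%) and 326 lower (4.79%), and 211 of the 436 genes called over all depths were called in the same direction. Of 20 M-phase genes, 10 were lower and 0 higher, with a median of -0.70. Cdk1 stood at 358 and 367 CPM in the first cluster and at 187 and 166 in the second. Plk1 stood at 430 and 450 against 155 and 174, Aurka at 319 and 317 against 109 and 134, and Ccnb1 at 296 and 353 against 143 and 164. Both sums of the first cluster were above both of the second for each of these 4. Of 25 segregation genes 9 were lower and 1 higher, among the lower ones Prc1 (479 and 559 against 192 and 278) and Bub3 (202 and 216 against 54.7 and 90.5).

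In each cluster the number of M-phase UMIs changed with depth even after thinning. The median first-cluster cell held 14 M-phase UMIs among 5000 in the band of 5000 to 7500 sequenced UMIs, in each library, and 21 and 23 in the band of 10000 to 12500. The median second-cluster cell held 12 and 14 in that last band, and 22 and 23 above 20000. The course between these bands differed by cluster. In the first cluster the median went from 14 through 16 and 21 to 23 up to 15000 UMIs in KO A, and through 18 and 23 to 22 in KO B, where the last band holds 19 and 17 cells. In the second cluster it fell between 7500 and 15000 UMIs, from 13 through 12 to 10 in KO A and from 18 through 14 to 13 in KO B, and stood at 16 in both libraries between 15000 and 20000. Below 10000 UMIs the clusters of KO B had equal medians (14 and 14, then 18 and 18, with 11 and 38 cells of the second cluster). In KO A the second cluster was the lower one there, at 8 against 14 and 13 against 16, with 5 and 18 of its cells. A lower M-phase level of the second cluster at equal depth was thus seen in both libraries only above 10000 UMIs, and the cells compared there are the deeper ones of the first cluster and the shallower ones of the second.

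The ribosomal and mitochondrial differences did not close at equal sequenced depth. Between 10000 and 12500 UMIs the median first-cluster cell held 219 and 254 ribosomal protein UMIs among 5000 and the median second-cluster cell 544 and 541. Mitochondrially encoded UMIs stood at 465 and 419 against 268 and 269 in that band. Over the cells of 10000 to 15000 UMIs, 65 of the 81 ribosomal protein genes were higher, all of them among the 74 called over all depths, and 9 of 12 mitochondrially encoded genes were lower. Within the synaptonemal list 6 of 13 were higher there, among them the 5 called over all depths. The further one was the cohesin subunit Smc1b, from 726 to 1245 CPM in KO A and from 697 to 1180 in KO B. Rad21l, near the limit for measurement, had log2 differences of 0.45 and 1.35 and was not called. Stag3 and Rec8 had mean differences of -0.52 and -0.35 there.

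**Figure D4:**
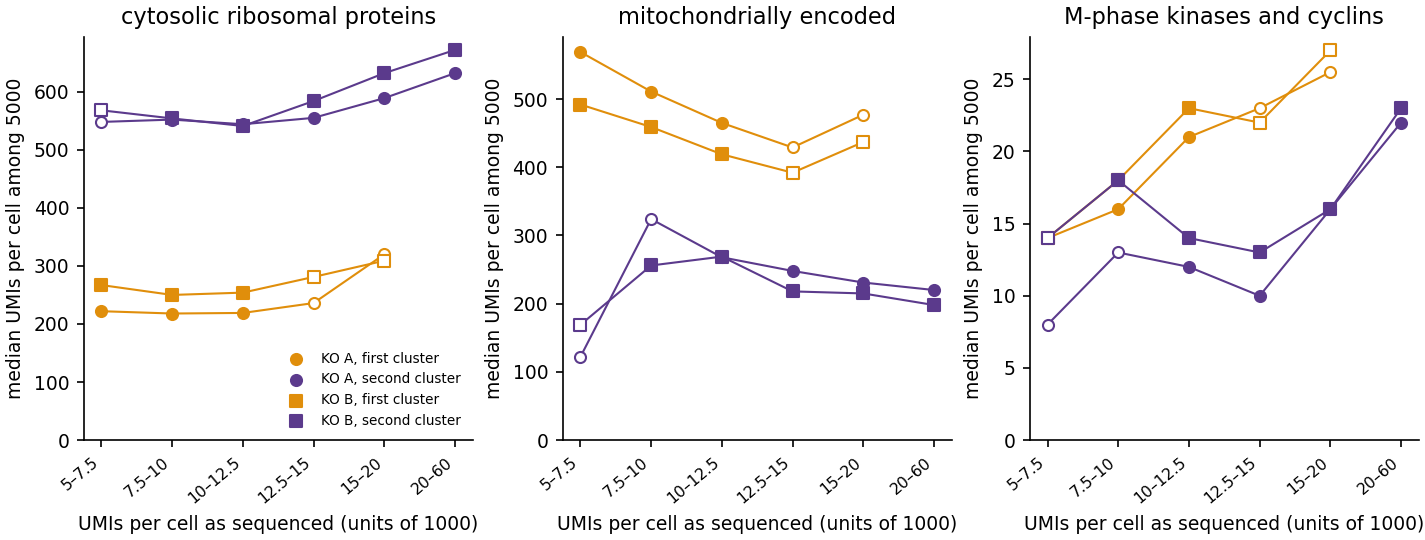
Median UMIs per cell among 5000 for 3 gene lists (y axes) by the UMIs sequenced from the cell (x axes, in units of 1000), for the first (orange) and second (purple) mixed cluster of KO A (circles) and KO B (squares). Open symbols stand for fewer than 20 cells. Ribosomal protein UMIs stay apart in every band that both clusters fill, while M-phase UMIs of the first cluster exceed those of the second between 10000 and 15000 sequenced UMIs.

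The remaining lists had few calls. Of 20 replication genes 1 was higher (Gins1) and 1 lower (Mcm2), with a median of -0.26. The immediate early genes, which respond within minutes to stimulation and to cell handling, had a median of -0.42, and 7 of 8 were below 0 in both libraries, which put the list 0.28 below the all-gene median. Klf2 was the single immediate early call (108 to 67.5 and 116 to 70.6). Of 10 p53 and apoptosis genes the proapoptotic Bbc3 was lower (27.7 to 17.9 and 25.9 to 14.1), and of 17 DNA damage genes Hus1 was lower. Of 31 decay and deadenylation genes, which include the enzymes that remove cap and tail from mRNA, Dcp1a was lower. Of 43 proteasome genes Psmb3, Psmb5 and Psmd14 were higher. Slc2a1 (glucose uptake) and Sdha (succinate dehydrogenase) were the single calls, both lower, of 12 glycolysis and 20 citric acid cycle genes. None was called among 15 genes of m6A, the mark that the YTH domain binds, 7 of chaperonin CCT, 16 chaperones, 11 tubulins, 20 centromere proteins, 17 polycomb and DNA methylation genes and 9 genes of the unfolded protein response.

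**Figure D5:**
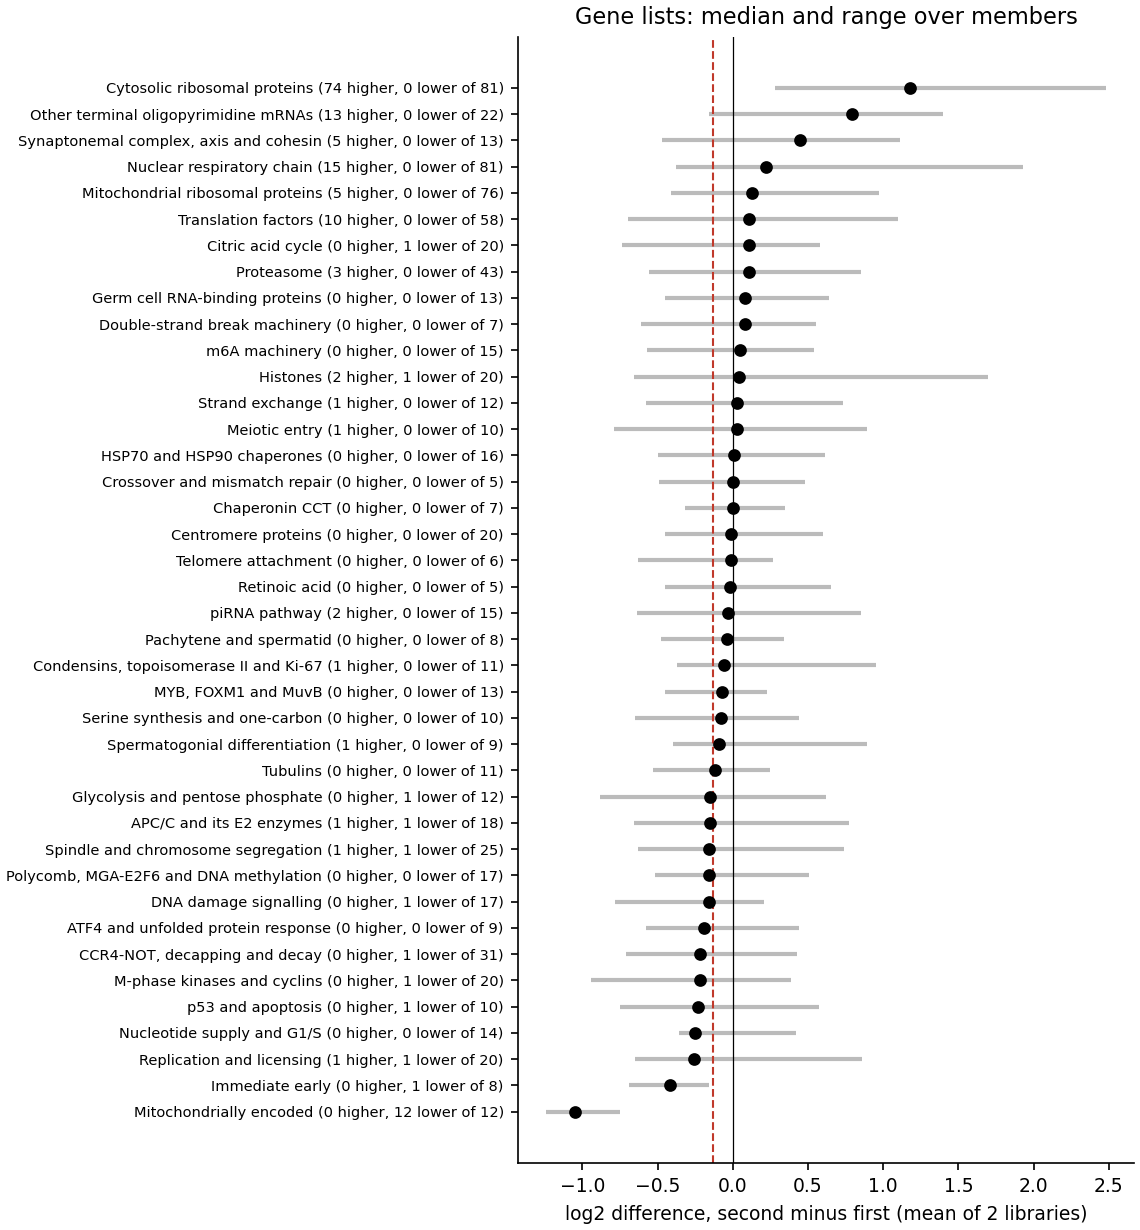
Median (dot) and range (line) over the measured members of each gene list of the log2 difference between the second and first mixed cluster, averaged over KO A and KO B; the dashed line is the all-gene median of -0.13 and the counts of called members are in the labels. Cytosolic ribosomal proteins (1.18) lie farthest up and mitochondrially encoded genes (-1.05) farthest down.

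Genes of the X chromosome took 2.30% and 2.38% of UMIs in the first cluster and 2.58% and 2.61% in the second, beside 2.57% in WT leptotene-zygotene cells and 2.12% and 2.19% in KO differentiating spermatogonia. Of 228 measured X-linked genes 11 were higher and 2 lower, with a median of 0.03. Over all measured genes 3.31% were higher and 3.08% lower, with a median of -0.13. X-linked genes of the ribosomal protein list were not left out of these shares and counts, and their part in them was not tested.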

How the data were processed

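Expression was deposited as natural log values of 1 plus the UMI count over a size factor. A cell table from the authors holds their counts of UMIs and genes per cell, the mitochondrial fraction, size factor and cell cycle score values, a log2 sum of genes with a U-rich motif, the genotype, the library number and the cluster. The authors' gene table gives a U-motif score. Cell Ranger 3.0.2 and Scanpy, with mm10/GRCm38, stand in the submitters' processing notes; their settings are not given in the sources used here. The authors' filter left cells with at least 3000 genes and at most 20% mitochondrial UMIs. Undoing log and size factor gave whole UMI counts for 100% of values within 0.001 and 99.9% of the deposited UMIs.

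Each cell was thinned without replacement to 5000 UMIs (fixed seed) in numpy 2.4.6. Sums per library and cluster held 1675000 to 2960000 UMIs. Both clusters of a library share that library, which is the pairing. Genes averaging at least 20 CPM and differing 1.5-fold the same way in both libraries were called. Named genes were the 15 with the largest smaller difference in each direction at 50 CPM or more, without predicted genes, then the same outside the ribosomal and mitochondrially encoded lists (added after seeing the data), list members, and Ythdc2, Meioc, Rbm46 and Xrn1. Lists and members were chosen with earlier results of these data known. Alternatives used edgeR 4.0.16 and DESeq2 1.42.0 at an adjusted p of 0.05. The fold rule and both tools were run on simulated counts with known changes. Genes varied independently there and the libraries shared the same means, unlike here, so the run checks the code and not its fit to these data. Doublets were called with Scrublet in scanpy 1.11.5 and kept. Chromosomes and starts were matched by symbol to RefSeq GRCm38.p6 (6666 of 6826 genes). Bulk and iCLIP samples of the series were not used here. Some genes that the rule names are not reported here.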

Additional observations from a re-analysis of the deposited data

How the results depend on the processing

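Counts of higher and lower genes (226 and 210) moved with the scaling, the fold, the filter and the cells used. They were 348 and 68 with TMM scaling, 70 and 9 at a fold of 2, 640 and 976 with no filter on level, and 311 to 393 and 469 to 666 with 1 of the KO libraries left out. The lower genes numbered 54 with the authors' scaled means, 51 at a filter of 100 CPM, 443 in cells of 5000 to 10000 UMIs (23 and 49 cells of the second cluster) and 326 in cells of 10000 to 15000 UMIs. With library as a replicate block edgeR called 1376 and 1072 genes, without the replicate block 1141 and 783, and DESeq2 with the block 471 and 71 (2382 genes without an adjusted p); these describe the circular comparison. At a fold of 2, 7 mitochondrially encoded, 3 respiratory and 0 synaptonemal genes were called. At 10000 to 15000 UMIs 8 respiratory genes were called, 6 of them among the 15 called over all depths. Of 741 values of named genes under the alternatives 285 moved by more than the spread between libraries, and 0 changed sign among called genes. With 2 KO libraries and 1 residual degree of freedom, the spread of a single gene is known only roughly.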

Other observations

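The WT library also held 24 cells in the first mixed cluster and 1 in the second. Those 24 had a median of 262 ribosomal protein UMIs among 5000, with quartiles of 190 and 362, and 12.3% mitochondrial UMIs. The median of the 654 WT differentiating spermatogonia was 651, with a lower quartile of 406. Depth differed too, with medians of 9515 UMIs in the 24 cells and 14306 in the 654. The clustering placed the 24 cells by their expression, so their low level describes the cluster and is no separate support.

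Genes that were higher in the second cluster had shorter genomic spans. The median RefSeq span from first to last exon was 5.18 kb for the higher genes, 22.7 kb for the lower ones and 24.8 kb for all measured genes, and 3.18 kb for the 81 ribosomal proteins. Outside the ribosomal protein and mitochondrially encoded lists the higher genes had a median of 11.2 kb (quartiles 4.02 and 30.6 kb). The authors' U-motif score per gene, with no stated method, had a median of 0.0140 over all measured genes, 0.0150 over the higher and 0.00994 over the lower ones. It was 0.0180 over the ribosomal proteins, and over the higher genes outside the ribosomal protein and mitochondrially encoded lists it was 0.0135, below the median of all genes. The authors' U-motif sum per cell had medians of 5.86 and 5.90 in the first cluster and 6.27 and 6.28 in the second, on their log2 scale, and depth differed in the same direction.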
